A study of Mus musculus with 6 samples.

Results

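The genes described here encode the translation initiation factors of the mouse and the 4E-BPs, the proteins that restrain the cap-binding factor eIF4E. They are the protein-coding rows of the deposited table whose GENCODE symbol starts with Eif1, Eif2, Eif3, Eif4, Eif5 or Eif6, with Eif2ak3 and Eif2s3y left out by name. The rule found 53 genes among 55416 rows. Of these, 52 passed the filter used for testing, at least 1 FPKM in at least 3 libraries, which 14229 rows passed. FPKM are read fragments scaled by the exon length of the gene and by the library total. Eif4e1b, an eIF4E relative known from oocytes, was the gene that did not pass and was listed at 0 in all 6 libraries. RNA was sequenced from primary neurons of WT mice, that is, brain neurons grown in a dish, which had received an adeno-associated virus (AAV). Of the 6 libraries, 3 came from cells given AAV-hsyn-miR-9-3p, in which the synapsin promoter, active in neurons, drives the microRNA. The other 3 came from cells given a control AAV, called AAV-scramble in the sample labels and AAV-hsyn-mCherry in the extraction protocol. The labels give no age, time after infection or source culture for a library, so the spread behind the p-values is that between libraries and may be technical.

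Translation of most messenger RNAs begins when eIF4E binds the cap, the scaffold eIF4G and the helicase eIF4A open the leader, and a small ribosomal subunit carrying eIF3, eIF1, eIF1A, eIF5 and the eIF2 complex with initiator tRNA scans to the start codon. Supply of active eIF2 is set by its exchange factor eIF2B and by kinases that phosphorylate eIF2. Supply of free eIF4E is set by the 4E-BPs under mTOR control. In neurons these switches are known for regulating protein synthesis at synapses and during stress.

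The microRNA of the vector and its partner strand from the same hairpin are shown because the seed (bases 2 to 8, in capitals) defines which 3′ untranslated regions it can pair with. The sequences are those of RefSeq on GRCm38.p6, and the mature forms of the loci Mir9-1, Mir9-2 and Mir9-3 on chromosomes 3, 13 and 7 are the same.

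miR-9-3p: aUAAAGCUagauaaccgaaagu

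miR-9-5p: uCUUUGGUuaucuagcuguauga

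Of the 52 tested genes, all with an annotated 3′ untranslated region of at least 30 bases in GENCODE M21, 9 (17.3%) held a miR-9-3p match in the longest of its annotated regions, against 20.5% of 12187 tested genes. A match was AGCTTTA, complementary to bases 2 to 8, or GCTTTAA, complementary to bases 2 to 7 and followed by A, on the transcript strand. Where both overlapped they were counted as 1 site. The genes with a match were Eif1ax, Eif2s3x, Eif3j1, Eif4a2, Eif4e, Eif4e3, Eif4ebp2, Eif5 and Eif5a2. Sites of Eif5a2 and Eif2s3x are shown because both genes rose with miR-9-3p AAV, and a site of Eif4a2 because it was the only 8-base match among the 9 genes (match in capitals, transcript strand, GRCm38).

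Eif5a2, chr3:28795797-28795826, plus strand: caacttgaaatAGCTTTAcaaatggaagac

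Eif5a2, chr3:28796497-28796526, plus strand: gcatttagtaaAGCTTTAtaaattatatta

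Eif2s3x, chrX:94189882-94189911, minus strand: cgtgctgccttGCTTTAAtttgatttttat

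Eif4a2, chr16:23113100-23113129, plus strand: tcatattcagtAGCTTTAAatagtactaaa

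The median log2 fold change of the 9 genes with a miR-9-3p match was -0.05, against -0.09 for the 43 genes without. In all tested genes these medians were 0.07 and -0.06. Of the 9 genes limma called 2 higher, Eif5a2 and Eif2s3x, and 0 lower, and of 2494 tested genes with a match it called 196 higher and 41 lower. Genes with a match had longer 3′ untranslated regions, with a median of 4192 against 664 bases among the initiation factors. A miR-9-5p match (ACCAAAG or CCAAAGA) was held by 10 of the 52 genes (19.2%), against 23.4% of tested genes. Limma called 0 of these 10 in either direction, and of 2847 tested genes with such a match it called 175 higher and 50 lower. The members with a match are too few to set the strands of the hairpin against each other. Neither Eif1 nor Eif4ebp1, the genes that fell, held a match to either strand of the hairpin.

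The depth ran from 16001205 to 17936453 reads per library, as recovered from the smallest steps in the table. Neuronal genes were abundant, with a summed level of 9 markers between 708 and 1298 FPKM, and 1 of them, Map2, was called higher in miR-9-3p AAV. Microglial markers were near 0, with a sum of 5 genes between 1.18 and 6.21 FPKM and 0 of 5 passing the filter. The summed level of 8 astrocyte markers was 417 to 485 FPKM in control AAV and 313 to 340 FPKM in miR-9-3p AAV, and 1 of them, Gfap, was called lower. The markers did not move as 1: the log2 fold change was negative in 5 and positive in 3, Slc1a3, Slc1a2 and Sox9. The sum holds large terms of Gfap (98.1 and 32.9 FPKM as group means) and Aldoc (140 and 88.4 FPKM). In such bulk samples, fewer cells of a type and less RNA per cell cannot be told apart. Lung transcripts were present in all 6 libraries: the summed level of 8 alveolar type 2 genes was 1047, 1634 and 5572 FPKM after control AAV and 1675, 632 and 509 FPKM after miR-9-3p AAV. Of these 8 genes, 7 had a negative log2 fold change and Abca3 had 0.21. The sum of 4 airway genes was larger, at 3700, 5089 and 17039 FPKM after control AAV and 5083, 1838 and 1156 FPKM after miR-9-3p AAV. Values by library are given here and throughout in the order of libraries 1, 2 and 3, control AAV first. The labels do not say whether libraries of the same number are pairs, and they were not treated as pairs. Calls with the lung level as a covariate are given beside the others because of the lung transcripts, and the part of the astrocyte markers in the results was not tested. The hairpin genes Mir9-1 and Mir9-2 were listed at 0 in all 6 libraries and Mir9-3 at no more than 1.96 FPKM, which does not check the vector's mature product.

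Of the 52 tested initiation factor genes, limma called 2 higher and 2 lower after miR-9-3p AAV. Eif5a2 and Eif2s3x rose, and Eif4ebp1 and Eif1 fell. The calls are those of limma on log2(FPKM + 1), a scale that understates the fold changes of low genes, at a Benjamini-Hochberg adjusted p under 0.05 over all genes tested. Over all 14229 tested genes 3.89% were called higher and 2.4% lower. The initiation factors' share of 7.69% called in either direction lay near the 6.29% of all genes. Control and miR-9-3p AAV values did not overlap for 7 members with higher and 14 with lower values (40.4% of members). Over all genes such shares were 18.2% and 16.7%, or 34.9% together. An unadjusted limma p under 0.05 was found for 11 members (21.2%), against 26.8% of all genes. The median log2 fold change of the members was -0.09 and that of all tested genes -0.02, and 35 of the 52 members had a negative value (67.3%, against 52.7% of all genes). With quantile normalization, which moved the median of all genes to 0.02, the members' median was -0.03 and 28 of 52 were negative.

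**Figure D1:**
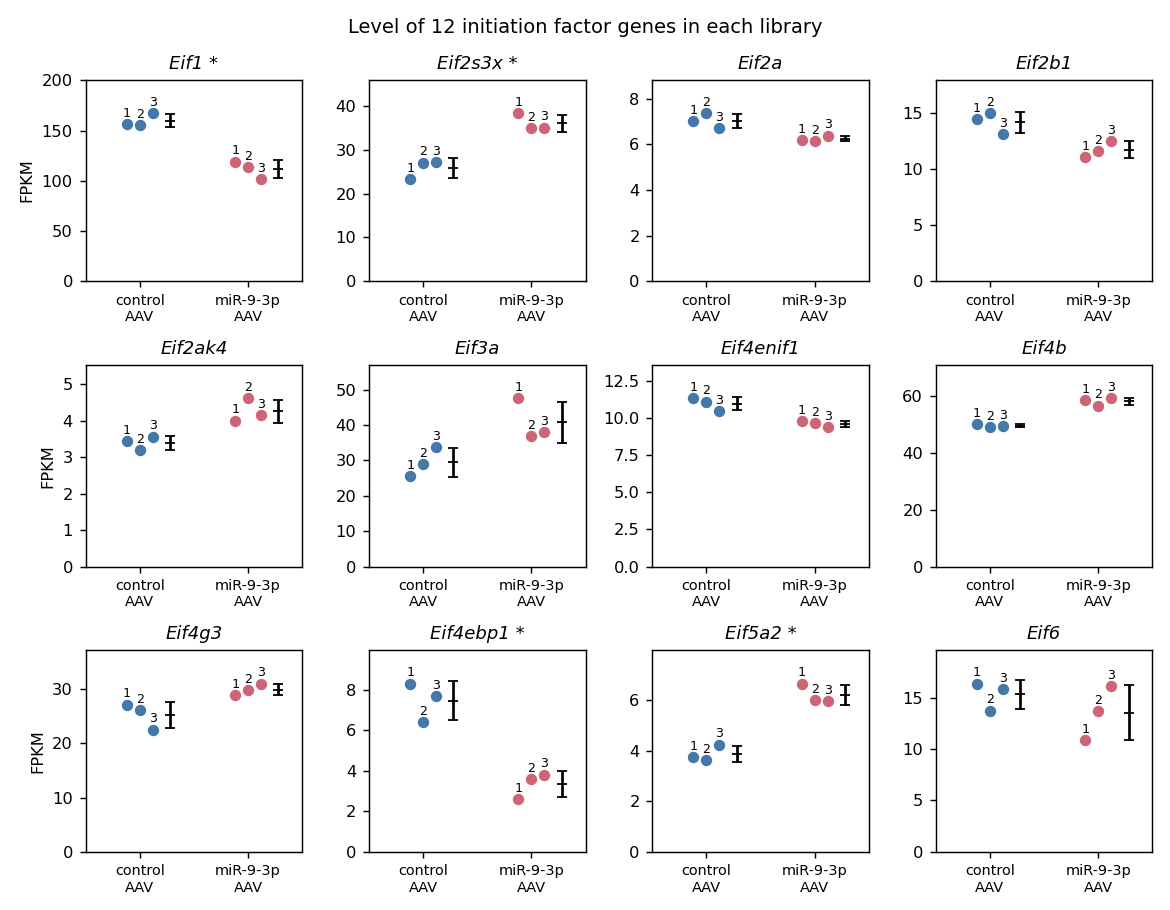
Level in FPKM (vertical axis, from 0) of 12 initiation factor genes in the 3 control AAV libraries (blue) and the 3 miR-9-3p AAV libraries (red); numbers are library numbers, bars the mean and SD, and a star marks an adjusted p under 0.05. The groups of Eif1, Eif2s3x, Eif4ebp1 and Eif5a2 do not overlap, while those of Eif6 do.

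Among the factors that act at the start codon, Eif1 fell. Eif1 (ENSMUSG00000035530, chromosome 11, 100319885 to 100322096, GRCm38) encodes the small factor that holds the scanning ribosome open and rejects wrong start codons. Its level was 157, 155 and 167 FPKM after control AAV and 119, 114 and 101 FPKM after miR-9-3p AAV. Every control library lay above every miR-9-3p library, with 3611 to 6219 reads behind each value. The log2 fold change was -0.52 (standard error, SE, 0.10), and limma gave an adjusted p of 0.0407. Elsewhere in the files, 13 rows share at least 95% identity with Eif1 over 150 or more bases, at 23.6 FPKM in sum (17.4% of Eif1). Most of this sum is Emd, a protein-coding gene that matches Eif1 at 96.7% over 662 bases and stood at 15.7 FPKM. A part of the Eif1 reads may be split, and the sum of 23.6 FPKM does not measure how much. Its paralog Eif1b had 86.5, 78.0 and 63.3 FPKM against 60.6, 71.4 and 77.8 FPKM, so its groups overlapped (log2 fold change -0.11, limma adjusted p = 0.666).

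The other start codon factors did not pass. Eif1ax, the X-linked gene of eIF1A, which works beside eIF1 on the scanning subunit, had 35.2, 36.9 and 36.1 FPKM in control AAV and 48.6, 41.7 and 42.1 FPKM in miR-9-3p AAV. Its groups did not overlap, with a log2 fold change of 0.28 and a limma adjusted p of 0.118. The autosomal eIF1A gene Eif1a had a log2 fold change of -0.09 and Eif1ad, which shares the eIF1A domain, -0.14. Eif5, whose product triggers GTP hydrolysis on eIF2, had 0.09, and Eif5b, whose product joins the large subunit, had 0.12. The summed level of these 7 genes was 347 ± 2.68 FPKM in control AAV and 303 ± 7.80 FPKM in miR-9-3p AAV (SD, n = 3 per group), a sum in which Eif1 is the largest term.

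The gene of the gamma subunit of eIF2 rose, and those of the other subunits did not pass. Eif2s3x (ENSMUSG00000035150, chromosome X, 94188707 to 94212862) encodes the subunit that binds GTP and the initiator tRNA. Its level was 23.2, 27.0 and 27.1 FPKM after control AAV and 38.2, 34.8 and 35.0 FPKM after miR-9-3p AAV, from 1417 to 2503 reads each. The groups were apart by more than the range within either of them. The log2 fold change was 0.47 (SE 0.10, limma adjusted p = 0.0445). Eif2s2, the beta subunit, lay the other way, at 19.8, 21.1 and 20.2 FPKM in control AAV and 17.8, 16.7 and 15.0 FPKM in miR-9-3p AAV. Its groups did not overlap either, but the log2 fold change of -0.29 had a limma adjusted p of 0.106. Eif2s1, the alpha subunit that the stress kinases phosphorylate, stood at 11.9 ± 0.847 and 11.7 ± 1.37 FPKM (SD, n = 3), and its log2 fold change was -0.03.

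Processed pseudogenes with nearly the same sequence make the eIF2 values uncertain where reads could be split. Gm2223 matched Eif2s3x at 100% over 1350 bases and stood at 2.41 FPKM on average in control AAV and 3.62 FPKM in miR-9-3p AAV. Gm9892 matched Eif2s2 at 99.5% over 992 bases and had 15.1 and 13.1 FPKM. Eif2a and Eif2d, which encode factors able to bring tRNA to the ribosome without eIF2, had no call. Eif2a had 7.02, 7.36 and 6.73 FPKM against 6.21, 6.16 and 6.39 FPKM, with a log2 fold change of -0.15 (limma adjusted p = 0.258), and Eif2d had a log2 fold change of 0.13. The Eif2a libraries of the groups did not overlap, those of Eif2d did.

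Of the 5 genes of eIF2B, the exchange factor that recharges eIF2 with GTP, 0 passed limma and 1, Eif2b1, had an unadjusted p under 0.05. In 4 of the 5 the log2 fold change was negative (median -0.25), and with quantile normalization in 3 of the 5. Eif2b1, the alpha subunit, had 14.4, 14.9 and 13.1 FPKM in control AAV and 11.0, 11.6 and 12.5 FPKM in miR-9-3p AAV. Its groups lay apart by less than the range within either (log2 fold change -0.25, SE 0.09, limma adjusted p = 0.135). Eif2b2, the beta subunit, had a log2 fold change of -0.31 and Eif2b4, the delta subunit, -0.25, and neither gene's groups overlapped. Eif2b4 shares 7.85% of its exon bases with Snx17 on the opposite strand, and whether strand was used in counting is not given in the sources used here. These alpha, beta and delta subunits form the regulatory part that senses phosphorylated eIF2. The catalytic epsilon subunit gene Eif2b5 had 23.8 ± 2.50 FPKM in control AAV and 26.5 ± 1.21 FPKM in miR-9-3p AAV (SD, n = 3), and the gamma subunit gene Eif2b3 had 2.05 ± 0.217 and 2.02 ± 0.0511 FPKM, with overlapping groups in both.

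The 3 tested eIF2 kinase genes had no call. Eif2ak4 encodes GCN2, the kinase that senses uncharged tRNA when amino acids run short. It stood at 3.44, 3.18 and 3.57 FPKM in control AAV and 4.01, 4.61 and 4.16 FPKM in miR-9-3p AAV, without overlap (log2 fold change 0.26, SE 0.09, limma adjusted p = 0.134). Eif2ak1, the heme-regulated kinase, had a log2 fold change of -0.11, and Eif2ak2, the kinase of double-stranded RNA, 0.03. Both had overlapping groups.

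**Figure D2:**
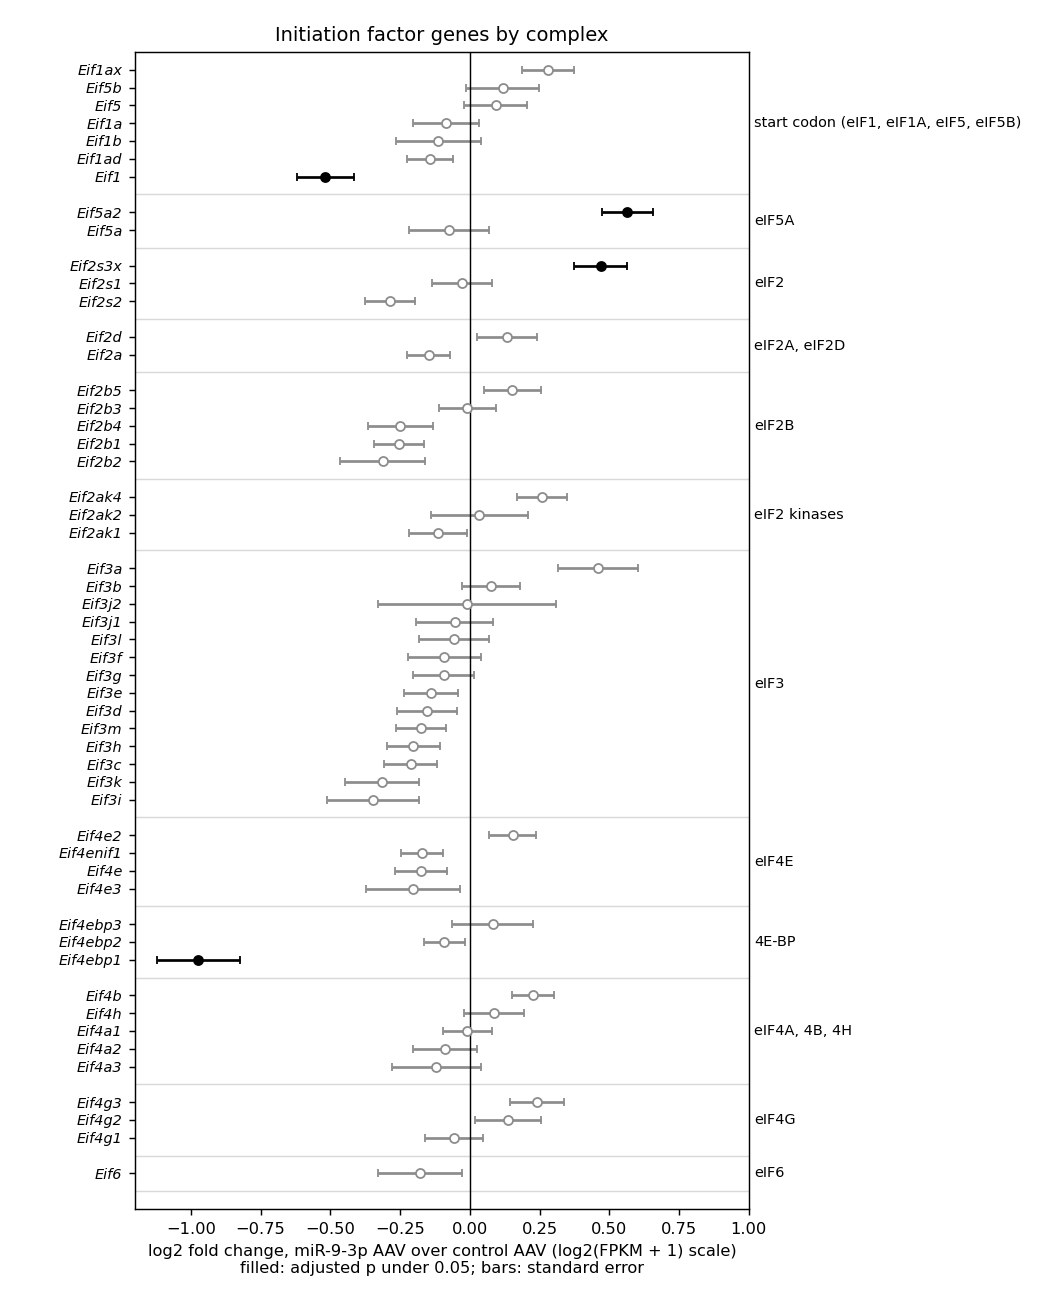
Log2 fold change (horizontal axis, miR-9-3p AAV over control AAV, on the log2(FPKM + 1) scale) of the 52 tested genes, grouped by complex; points are limma estimates, bars the standard error, and filled points have an adjusted p under 0.05. The filled points are Eif5a2 and Eif2s3x to the right of 0 and Eif1 and Eif4ebp1 to the left, and 12 of 14 eIF3 genes lie left of 0.

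The eIF3 complex, the largest initiation factor, coats the small subunit and links it to eIF4G. Of its 14 tested genes 0 passed limma in either direction and 1, Eif3a, had an unadjusted p under 0.05. The log2 fold change was positive in 2 and negative in 12 of them (median -0.12), and with quantile normalization positive in 3 and negative in 11 (median -0.08). The groups did not overlap for 1 gene with higher values, Eif3a, and for 4 with lower values, Eif3c, Eif3h, Eif3k and Eif3m. Over all genes these shares were 18.2% and 16.7%, and their total of 34.9% is near that of the eIF3 genes. Eif3a, which encodes the largest scaffold subunit, had 25.6, 29.0 and 33.7 FPKM after control AAV and 47.5, 36.9 and 38.0 FPKM after miR-9-3p AAV. Both groups were spread widely, and library 1 of miR-9-3p AAV was the highest of the 6 (log2 fold change 0.46, SE 0.14, limma adjusted p = 0.108). Eif3a was called higher with the lung level as a covariate (log2 fold change 0.71, limma adjusted p = 0.00673), with a batch term for lung content (0.0173) and without the library of each group that had the highest lung level (0.0458), where 5.53% of all genes were higher and 5.99% lower. In the covariate fit 12.7% of all genes were higher and 16.6% lower, and in the batch fit 9.91% and 8.74%. In 15 alternatives Eif3a stayed without a call. With the exon length trend removed its log2 fold change was 0.34 (limma adjusted p = 0.189), and with quantile normalization 0.49 (0.156).

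The most negative eIF3 values were those of Eif3i and Eif3k. Eif3i, a propeller-shaped subunit bound to eIF3b, had 27.0, 22.1 and 19.0 FPKM in control AAV and 14.5, 19.1 and 19.1 FPKM in miR-9-3p AAV, and its groups met at 19.0 and 19.1 FPKM (log2 fold change -0.35, limma adjusted p = 0.231). Eif3k had 29.6, 25.6 and 25.8 FPKM and 17.8, 23.6 and 23.5 FPKM (log2 fold change -0.32, limma adjusted p = 0.193). In both genes miR-9-3p AAV library 1 was the lowest and control AAV library 1 the highest. The scaffold subunit gene Eif3b had a log2 fold change of 0.08, and the remaining eIF3 genes lay between -0.21 (Eif3c) and -0.01 (Eif3j2). Levels ranged from 1.41 FPKM for Eif3j2 and 9.26 FPKM for Eif3j1 to 79.3 FPKM for Eif3c and 88.5 FPKM for Eif3h as means of the 6 libraries. The FPKM matched scaling by all annotated exon bases of a gene, so levels are not strictly comparable between genes. That length was 6719 bases for Eif3e, whose longest coding transcript has 1506, and 1612 against 1295 bases for Eif3h. Eif3j1 and Eif3j2 share 99.4% of 2379 bases, so reads could be split between them and their separate values are uncertain. The summed eIF3 level was 503, 481 and 457 FPKM after control AAV and 423, 461 and 458 FPKM after miR-9-3p AAV, and the groups overlapped.

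**Figure D3:**
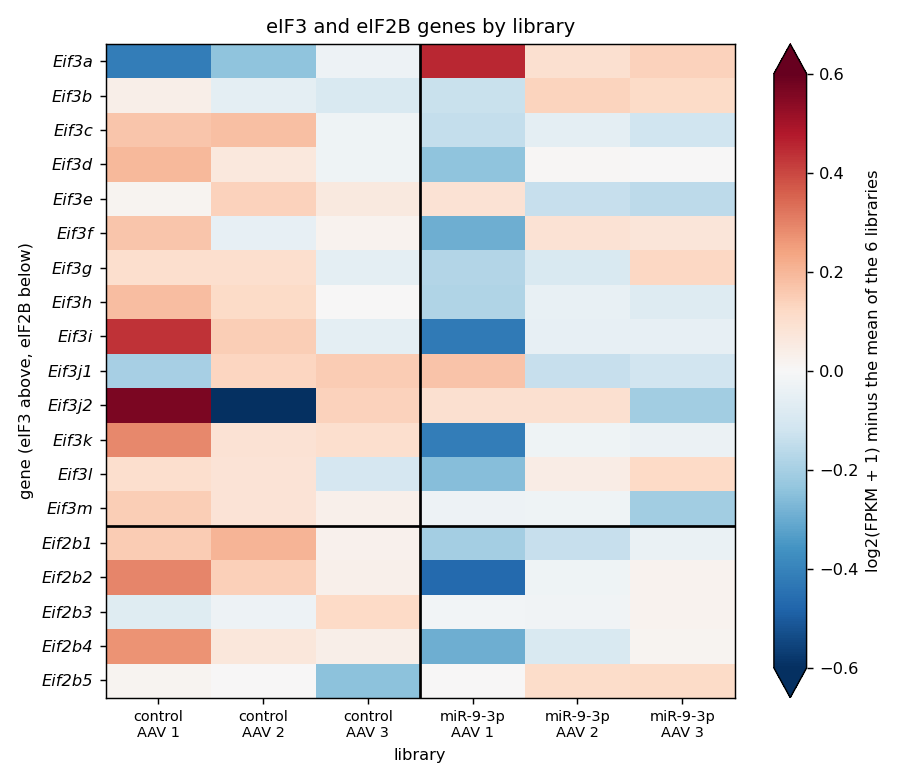
Deviation of each eIF3 gene (above the line) and eIF2B gene (below) from its mean over the 6 libraries, in log2(FPKM + 1) units (colour, capped at the ends of the scale), by library (columns). Eif3a is highest in miR-9-3p AAV library 1, where Eif3i, Eif3k and Eif2b2 are lowest.

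The cap-binding and helicase genes had no call. Eif4e, the cap-binding factor itself, had 21.9, 23.7 and 23.1 FPKM in control AAV and 22.1, 19.9 and 18.6 FPKM in miR-9-3p AAV, with overlapping groups (log2 fold change -0.18, limma adjusted p = 0.268). The pseudogene Gm7327 matches Eif4e at 98.6% over 654 bases and was listed at 5.86 and 2.27 FPKM on average in the groups, so the Eif4e value is uncertain. Among the eIF4E relatives, Eif4e2, whose product competes for caps and represses translation, had a log2 fold change of 0.15 and Eif4e3 -0.20. Eif4enif1, whose product carries eIF4E into the nucleus and to processing bodies, had the lowest p of these genes, at 11.3, 11.1 and 10.5 FPKM and at 9.81, 9.64 and 9.39 FPKM (log2 fold change -0.17, SE 0.07, limma adjusted p = 0.199). Its groups did not overlap.

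Of the helicase genes, Eif4a1 stood at 86.1 ± 5.45 FPKM in control AAV and 85.4 ± 0.440 FPKM in miR-9-3p AAV (SD, n = 3), and Eif4a2, the form abundant in brain, at 89.8 ± 3.64 and 84.8 ± 10.6 FPKM. Reads of Eif4a1 cannot be told with certainty from those of the processed pseudogene Eif4a-ps4 (chromosome 1, 60703932 to 60705149), which matches it at 99.9% over 1218 bases and was itself listed at 68.6 and 65.7 FPKM. The third helicase gene, Eif4a3, known for the exon junction complex, had a log2 fold change of -0.12. Eif4b, a cofactor that stimulates eIF4A, had 50.1, 49.0 and 49.5 FPKM in control AAV and 58.6, 56.6 and 59.1 FPKM in miR-9-3p AAV. Its groups were narrow and did not overlap, with a log2 fold change of 0.23 (SE 0.08) and a limma adjusted p of 0.123. The other cofactor gene, Eif4h, had a log2 fold change of 0.09.

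The scaffold genes of the eIF4G family had no call either. Eif4g3 had 27.1, 26.1 and 22.5 FPKM in control AAV and 28.9, 29.9 and 31.0 FPKM in miR-9-3p AAV, without overlap (log2 fold change 0.24, SE 0.10, limma adjusted p = 0.179). With the trend on exon length removed its log2 fold change was 0.07. Eif4g1, the main scaffold, had a log2 fold change of -0.06. Eif4g2, whose product lacks the eIF4E-binding part and serves cap-independent initiation, had a log2 fold change of 0.14. Its FPKM was the highest listed for the 53 genes (138 as a mean of the 6 libraries), on a scale not strictly comparable between genes.

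Among the 4E-BP genes, Eif4ebp1 fell. Eif4ebp1 (ENSMUSG00000031490, chromosome 8, 27260329 to 27276674) encodes 4E-BP1, which competes with eIF4G for eIF4E until mTOR phosphorylates it, and the gene is a known target of the stress factor ATF4. Its level was 8.31, 6.40 and 7.70 FPKM after control AAV and 2.60, 3.57 and 3.81 FPKM after miR-9-3p AAV, from 98 to 300 reads each. The lowest control library was above the highest miR-9-3p library by more than the spread within either group. The log2 fold change was -0.97 (SE 0.15, limma adjusted p = 0.0264), the largest in size among the 52 genes. Eif4ebp2, the form that predominates in brain, had 26.7, 25.3 and 26.4 FPKM and 24.3, 24.7 and 24.4 FPKM. Its groups did not overlap, and its log2 fold change of -0.09 had a limma adjusted p of 0.447. Eif4ebp3 was near the filter, at 0.973 ± 0.261 and 1.08 ± 0.128 FPKM (SD, n = 3) from 10 to 15 reads per library, and shares 67.3% of its exon bases with another annotated gene on the same strand, so its value is uncertain. The summed level of the 4E-BP genes was 34.6 ± 1.96 FPKM in control AAV and 28.9 ± 0.903 FPKM in miR-9-3p AAV (SD, n = 3).

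Of the eIF5A genes, Eif5a2 rose. These genes encode a factor with the modified residue hypusine that helps the ribosome through difficult peptide bonds and was first isolated as an initiation factor. Eif5a2 (ENSMUSG00000050192, chromosome 3, 28781276 to 28798846) had 3.74, 3.63 and 4.24 FPKM after control AAV and 6.65, 5.98 and 5.96 FPKM after miR-9-3p AAV, from 301 to 574 reads each. The groups lay apart by more than their own ranges. The log2 fold change was 0.56 (SE 0.09, limma adjusted p = 0.0292). Its paralog Eif5a, at 161, 136 and 125 FPKM in control AAV and 115, 139 and 146 FPKM in miR-9-3p AAV, had overlapping groups and a log2 fold change of -0.07. Both miR-9-3p matches of Eif5a2 lie in an untranslated region of 4391 bases. Eif6, whose product keeps the large subunit from joining early, had 16.4, 13.7 and 15.9 FPKM against 10.8, 13.6 and 16.1 FPKM, with overlapping groups (log2 fold change -0.18, limma adjusted p = 0.478).

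The 4 calls depended on the libraries in the fit. Without control AAV library 1 or 2, or without any 1 of the miR-9-3p AAV libraries, 0 genes of the whole table passed limma, while 2739 to 3654 genes, 4 to 11 of them members, had an unadjusted p under 0.05. Without control AAV library 3, 3.23% of all genes were higher and 2.02% lower (5.24% together). Then Eif4ebp1 (limma adjusted p = 0.0453) and Eif5a2 (0.039) passed, and Eif1 (0.0629) and Eif2s3x (0.055) did not. The log2 fold changes kept their sign over these fits, between -1.07 and -0.85 for Eif4ebp1, 0.52 and 0.62 for Eif5a2, -0.57 and -0.45 for Eif1, and 0.40 and 0.50 for Eif2s3x.

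Partners and regulators of initiation were taken from a list of known factors, 27 of them tested, and 0 of these passed limma in either direction (median log2 fold change 0.01, against -0.02 for all genes). Of these 27, 5 had an unadjusted p under 0.05, as did 26.8% of all genes. The groups did not overlap for 4 genes with higher and 5 with lower values, against 18.2% and 16.7% of all genes. Ppp1r15a, which encodes the stress-induced subunit of the phosphatase that reactivates eIF2, stood at 10.6 FPKM in control AAV and 7.28 FPKM in miR-9-3p AAV as group means (log2 fold change -0.48, limma adjusted p = 0.0676). Impact, an inhibitor of GCN2 abundant in neurons, stood at 32.3 and 25.7 FPKM (log2 fold change -0.32, limma adjusted p = 0.0816). Of 12 elongation and termination genes 0 passed limma, against 6.29% of all genes. An unadjusted limma p under 0.05 was found for 3 of them, near the 26.8% of all genes (median log2 fold change -0.01). The release factor gene Gspt1 had a log2 fold change of 0.37 (limma adjusted p = 0.0705) and the elongation factor gene Eef1b2 -0.25 (0.124).

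Fold changes of the members went with exon length. Across the 52 genes the Spearman rho of log2 fold change with exon length was 0.48, and it was 0.27 across 14097 tested genes with an annotated length. These are descriptions across genes, which share libraries and are not independent. Of the 26 shorter genes 4 had a positive and 22 a negative log2 fold change, and of the 26 longer genes 13 and 13. With each library's trend on exon length removed, the rho of the members was 0.14 and their median log2 fold change -0.04. In that fit 2.01% of all genes were higher and 1.49% lower (3.5% together). Eif4ebp1 (log2 fold change -0.87, limma adjusted p = 0.0335) and Eif5a2 (0.56, 0.0466) passed, and Eif1 (-0.41, 0.107) and Eif2s3x (0.52, 0.0651) did not.

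**Figure D4:**
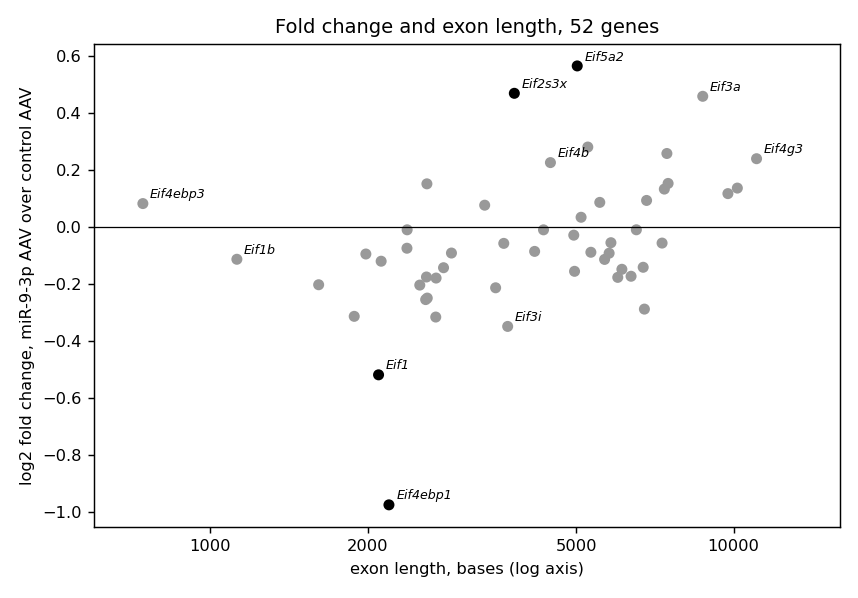
Log2 fold change (vertical axis, miR-9-3p AAV over control AAV) against exon length in bases (horizontal log axis) for the 52 tested initiation factor genes; black points have an adjusted p under 0.05. Short genes lie mostly below 0, with 22 of the 26 shorter genes negative, and Eif5a2 and Eif2s3x stand above genes of like length.

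The lung level, taken as the median of 8 alveolar type 2 genes relative to the lowest library, was 2.25, 3.21 and 10.8 in control AAV libraries 1, 2 and 3 and 3.20, 1.17 and 1 in miR-9-3p AAV libraries 1, 2 and 3. On the log2 scale it averaged 2.10 in control AAV and 0.63 in miR-9-3p AAV, a group difference of -1.46. Single libraries spanned a range of 2.27 in control AAV and 1.68 in miR-9-3p AAV. The two-sided exact permutation p was 0.2. The smallest p that 3 against 3 libraries allow is 0.1, so the test cannot decide whether the groups differ in lung level. Within the groups the slope on the lung level was negative for 32 of the 52 members, 10 of the 14 eIF3 genes among them, and for 7443 of all 14229 genes. With this level as a covariate, limma called 7 members higher and 12 lower, 36.5% of the 52. The share over all genes also rose, to 12.7% higher and 16.6% lower, 29.3% in all. The 7 higher genes were Eif1ax, Eif2s3x, Eif3a, Eif4g2, Eif5, Eif5a2 and Eif5b. The 12 lower genes were Eif1, Eif1b, Eif4ebp1 and Eif5a, the eIF2B genes Eif2b1, Eif2b2 and Eif2b4, and the eIF3 genes Eif3c, Eif3d, Eif3h, Eif3i and Eif3k. All 4 genes called without the covariate were among them, with log2 fold changes of -1.10 for Eif4ebp1 (limma adjusted p = 0.0096), 0.68 for Eif5a2 (0.00716), 0.58 for Eif2s3x (0.00879) and -0.42 for Eif1 (0.0172).

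**Figure D5:**
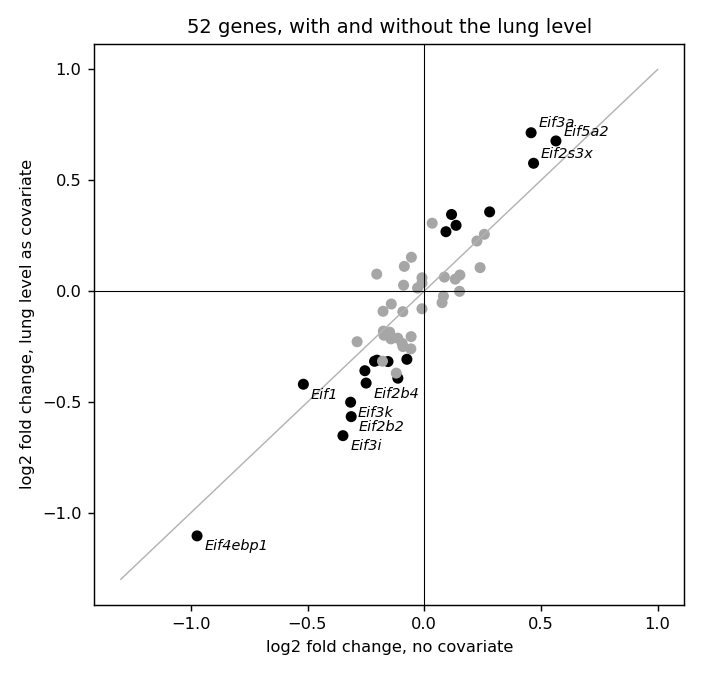
Log2 fold change of the 52 tested genes from the fit that includes the lung level (vertical axis) against that without (horizontal axis); the grey line marks equal values and black points have an adjusted p under 0.05 with the covariate. Eif4ebp1 lies at -0.97 and -1.10, and the 19 black points include 5 eIF3 genes and 3 eIF2B genes below 0.

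The share of the airway gene Bpifa1 relative to Scgb1a1, at most 0.0293% in some libraries and 0.939% to 0.966% in the others, divided the libraries into sets that each hold both groups: control AAV library 1 with miR-9-3p AAV libraries 2 and 3, and control AAV libraries 2 and 3 with miR-9-3p AAV library 1. Within the sets the log2 differences were -0.99 and -1.16 for Eif4ebp1, 0.56 and 0.64 for Eif5a2, 0.57 and 0.48 for Eif2s3x and -0.54 and -0.43 for Eif1. They had the same sign in both sets for 42 of the 52 members (80.8%), near the 80.3% of all tested genes. With the set as a batch term, limma called 4 members higher and 6 lower, among 9.91% and 8.74% of all genes. These were Eif1ax, Eif2s3x, Eif3a and Eif5a2, and Eif1, Eif2b2, Eif2b4, Eif3i, Eif3k and Eif4ebp1.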

How the data were processed

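Expression was measured by RNA sequencing in 6 libraries of mouse primary neurons, 3 per group. The authors deposited 1 table of FPKM values per gene. Per the submitters' processing notes HISAT2 and Cufflinks 2.2.1 were used with the build mm10; their settings, the annotation, the use of strand and any filters are not given in the sources used here. With all annotated exon bases of a gene taken as its length, low values stepped in whole reads for 98.1% of values (within 0.01 read), which gave the depth. Genes were matched to GENCODE M21 (GRCm38, the same build), and 3281 of 55416 rows had no match.

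Rows at or over 1 FPKM in 3 or more libraries were tested with limma 3.58.1 in R 4.3.3 on log2(FPKM + 1), with an intensity trend, no covariates and Benjamini-Hochberg adjustment over 14229 genes. The code was tested on simulated data. Near-identical transcripts were found with blastn 2.17.0. The 18 alternatives covered the pseudocount, filter, normalization, left-out libraries, lung content, exon length, a replicate block and voom on recovered reads.

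The members and lists were chosen with earlier results of these data known. Values by library are given for every called gene and, in a complex with no call, for the gene with the lowest p; other lists give the 2 genes with the lowest p. Further genes given by library (Eif1b, Eif1ax, Eif2s2, Eif3i, Eif3k, Eif4e, Eif4ebp2 and Eif5a) were chosen after their values were seen. No column of other samples was present. The oligodendrocyte lineage markers are not reported here.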

Additional observations from a re-analysis of the deposited data

How the results depend on the processing

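Over 18 alternatives the log2 fold changes of 12 genes given by library never changed sign. Of 215 pairs of these 12 genes with an alternative, 174 stayed on the same side of the threshold, 37 lost the call and 4 gained one. The 174 include pairs in which a gene without a call stayed without one. All 37 lost calls were of the 4 called genes. The call ended in 13 of 18 alternatives for Eif2s3x, in 10 for Eif1 and in 7 each for Eif4ebp1 and Eif5a2. The counts of initiation factors called (2 higher and 2 lower) were 1 and 2 with median-of-ratios size factors, without the intensity trend and with voom, where 5.44%, 5.93% and 6.43% of all genes were called and the call of Eif2s3x ended (limma adjusted p = 0.0548, 0.0501 and 0.0573). They were 1 and 1 with quantile normalization and with the exon length trend removed, where Eif1 also lost its call (0.0987 and 0.107). They were 3 and 2 when the library with most lung transcripts was left out of each group, 4 and 6 with a batch term for the lung set, and 7 and 12 with a lung covariate. Without a filter 0 and 0 members passed and 13 had an unadjusted p under 0.05. Leaving out 1 library gave 0 to 1 member higher and 0 to 1 lower, and 0 to 459 genes higher and 0 to 287 lower in the whole table. The whole-table counts of 554 higher and 341 lower were 109 and 67 without a filter, 1410 and 1243 with the batch term, 1811 and 2356 with the covariate, 283 and 210 with the length trend removed, and 787 and 853 without those lung-rich libraries. The cause of these changes was not tested. With the replicate number as a block 0 genes and 0 members passed limma, while 2213 genes and 4 members had an unadjusted p under 0.05. For libraries of the same number the deviations from the group means correlated at -0.65, 0.11 and -0.54, and control AAV library 3 correlated best with miR-9-3p AAV library 1 (0.62). These values do not settle whether libraries of the same number were matched, which the labels leave unsaid. Depth limits Eif4ebp3, with 10 to 15 reads per library.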
